A study of Mus musculus and Homo sapiens with 20 samples.

Results

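10 genes of STAT5 signalling were followed through treatment with an HSP90 inhibitor: the feedback inhibitors CISH, SOCS1, SOCS2 and SOCS3, the kinases PIM1, PIM2 and PIM3, the cytokine OSM, and the transcription factors STAT5A and STAT5B. They were the rows whose symbol equalled 1 of these 10 names, ignoring case, among 63568 genes in the human count table and 43626 in each of the 2 mouse tables. All 10 were found in each table. The human table held PIM2 under 2 identifiers, and the second (ENSG00000267878.1) had 0 counts in all 6 libraries. The genes were chosen with their response to the inhibitor known, so their HSP90i against Control values are given as a description and without p-values. Where a member is called, this says only that its row passed the threshold of the fit over all genes.

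RNA was sequenced from K562, MEF and HPC-7 cells, with 3 HSP90i and 3 Control libraries in each line. The HSP90i libraries came from cells given NVP-AUY922, which blocks the ATP site of the HSP90 chaperones, for 16 h. The concentration was 300 nM for K562, 200 nM for MEF and 50 nM for HPC-7. The Control libraries of each line are named for DMSO, the solvent, in the count tables. K562 is a human chronic myeloid leukaemia line whose HSP90i and Control cells alike carry the fusion kinase BCR-ABL1. The mouse lines are MEF, embryonic fibroblasts, and HPC-7, haematopoietic precursor cells. Line, species and dose changed together and cannot be told apart.

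Cytokine receptors that lack a kinase of their own signal through JAK kinases, which phosphorylate STAT proteins. Phosphorylated STAT5A and STAT5B pair, enter the nucleus and bind a palindromic element, and CISH, the SOCS genes and the PIM kinases are among the best known genes they switch on. CISH and the SOCS proteins in turn bind receptors or JAKs and damp the signal, while PIM kinases promote survival and growth. In leukaemia cells with BCR-ABL1, that kinase keeps STAT5 phosphorylated without a cytokine.

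K562 libraries held 7936066 to 10950573 counts, MEF libraries 10542305 to 22872539 and HPC-7 libraries 10131491 to 16859394. K562 Control replicate 1 stood apart. Its counts differed from those of the other K562 controls by a chi-square of 39.8 and 50.3 per gene, against 5.03 between the other two, so the K562 values of the members and of the other named genes are also given without it. MEF Control replicate 3 differed from the other MEF controls by 10.6 and 10.5, against 3.29 between those. Pairs of HPC-7 HSP90i libraries differed by 8.54 to 15, and pairs of HPC-7 Control libraries by 2.31 to 4.75. Whether replicates came from separate cultures is not stated in the labels, and p-values therefore reflect the spread between these libraries alone, which may be technical. In these bulk libraries, fewer cells of a type and less RNA per cell cannot be told apart. The erythroid markers GATA1, TAL1, HBZ, HBE1 and HBG1 exceeded 1 CPM in K562, 5 of 6 fibroblast markers in MEF and all 6 blood precursor markers in HPC-7. Of the fibroblast markers, Thy1 and Lum were at 0 in HPC-7, but Lum was low in MEF Control too (0.29 CPM). Pdgfrb, on the same list, averaged 192 CPM in HPC-7 Control and 250 CPM in MEF Control. Of the chaperone genes read as a check of the drug, HSPA8, a constitutive HSP70 gene, was higher in each line, with a log2 fold change of 3.91 ± 0.13 (SE) for K562 (3.93 without Control replicate 1), 2.52 ± 0.07 for MEF and 1.6 ± 0.08 for HPC-7. HSP90AA1, which encodes an isoform of the inhibitor's target, was higher in K562 (3.20 ± 0.13) and MEF (1.21 ± 0.22) but lower in HPC-7 (−0.62 ± 0.15).

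In K562, 6 of the 9 members with enough counts to be tested were lower with the inhibitor and 0 were higher. These were CISH, SOCS1, SOCS2, SOCS3, PIM1 and PIM2, at between 5.51-fold and 24.7-fold below Control. In MEF, Cish, Socs1, Socs2, Socs3, Pim1 and Stat5b were lower and Pim2, Pim3 and Stat5a higher. In HPC-7, Cish, Stat5a and Stat5b were higher and none of the 8 tested members was called lower. A level is given in CPM (TMM-scaled for library size), as mean ± SD with n = 3 per group. A log2 fold change is HSP90i over Control, followed by its SE, the standard error. A gene was called where its p from edgeR's quasi-likelihood test, adjusted by Benjamini-Hochberg over all genes of the line, was below 0.05.

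Across all tested genes of K562, 11.1% were called, 5.97% lower and 5.11% higher. In MEF 73.4% were called, 38.2% lower and 35.1% higher, and in HPC-7 73.1%, 36.6% lower and 36.5% higher. HSP90i and Control values did not overlap for 6 lower members in K562, where 17.8% of all tested genes lay that way. They did not overlap for 3 higher and 6 lower members in MEF (37% and 39.3% of all tested genes) and for 3 higher members and 1 lower member in HPC-7 (38.5% and 38.9%). The members were chosen on these contrasts, so nothing is read from their counts against these shares. The median log2 fold change of the tested members was −2.50 in K562, beside −0.02 over all tested genes. The MEF median was −0.77 beside −0.01, and the HPC-7 median 0.25 beside −0.00. The counts of 0 had no companion at an unadjusted p below 0.05 or with DESeq2, which both gave 0 higher members in K562 and 0 lower members in HPC-7. DESeq2 gave 2 higher and 6 lower members in MEF. Without K562 Control replicate 1 the K562 count was again 6 lower and 0 higher. In the same K562 libraries GATA1 averaged 107 CPM in HSP90i and 199 CPM in Control, and GATA2 averaged 36.7 CPM in HSP90i and 133 CPM in Control. The 6 blood precursor markers, GATA2 among them and CD34 at 0, summed to 451 to 481 CPM in K562 HSP90i and 500 to 606 CPM in K562 Control libraries. Their part in the members' values was not tested.

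**Figure D1:**
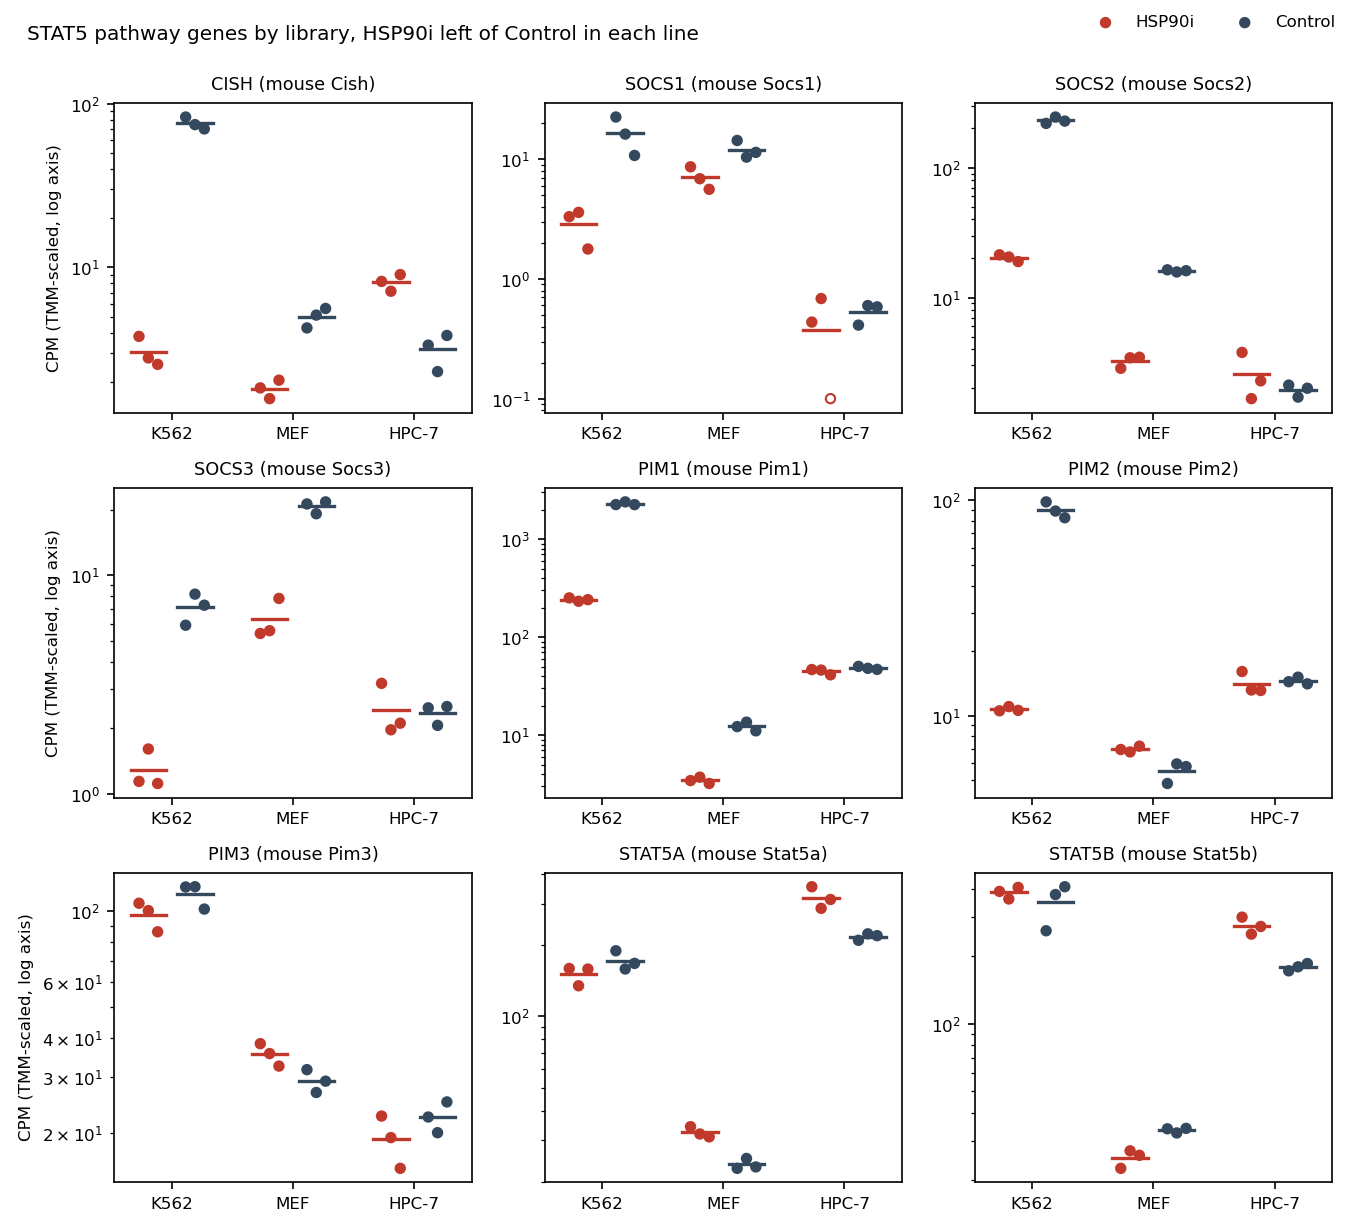
Level of each tested gene in every library (CPM, TMM-scaled within each line, log axis), with HSP90i in red to the left of Control in dark blue for K562, MEF and HPC-7; dots are libraries, lines are means of 3, and the open circle is a library with 0 counts, drawn at 0.1 CPM. CISH, SOCS2, PIM1 and PIM2 were far lower with the inhibitor in K562, and Cish was higher in HPC-7.

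CISH, an SH2 protein that competes with STAT5 for phosphorylated receptors, had 3.79, 2.80 and 2.56 CPM in K562 HSP90i libraries, against 82.9, 74.5 and 70.2 CPM in K562 Control libraries. The groups were far apart, and the log2 fold change of −4.62 ± 0.19 was the 3rd lowest of 13456 tested genes. It was −4.55 without Control replicate 1. In MEF, Cish was low throughout, at 1.84, 1.58 and 2.05 CPM in HSP90i libraries and 4.27, 5.11 and 5.61 CPM in Control libraries. The MEF groups did not overlap either (−1.42 ± 0.18).

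HPC-7 showed the opposite direction for Cish. Its level was 8.21, 7.15 and 9.04 CPM in HPC-7 HSP90i libraries and 3.35, 2.31 and 3.84 CPM in HPC-7 Control libraries. Every treated library lay above every control library, at 2.55-fold (log2 fold change 1.35 ± 0.19). Leaving out single HPC-7 libraries kept the log2 fold change between 1.18 and 1.49.

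The mouse Cish gene (ENSMUSG00000032578) lies on chromosome 9 (107296659 to 107302784, GRCm38.p6). Its promoter is shown because human CISH had the largest decrease in K562 among the members. The mouse window, unlike most, also holds the core letters of the STAT element, TTCNNNGAA. No human promoter was examined, so these letters are not those of the gene measured in K562. RefSeq promoter windows (250 bases before to 50 after an annotated start) were available for 8 of the 10 mouse members, in 11 windows, but not for Socs2 and Osm. The palindrome reads alike on both strands. In the lines that follow, capitals mark each match to TTCNNNGAA. The first gives 30 bases at the annotated start, chr9:107296654-107296683, and the second the 250 bases before it, chr9:107296409-107296658, both on the plus strand.
Cish start: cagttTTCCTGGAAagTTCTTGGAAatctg
Cish upstream: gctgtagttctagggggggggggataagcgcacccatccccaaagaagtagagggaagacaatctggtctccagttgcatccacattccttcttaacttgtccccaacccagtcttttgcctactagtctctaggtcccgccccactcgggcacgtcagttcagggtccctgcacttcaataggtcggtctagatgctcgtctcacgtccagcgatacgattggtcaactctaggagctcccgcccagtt
Both matches are also instances of the stricter TTCCNNGAA, searched on both strands, and the first begins at the annotated start itself. Of all 32851 mouse windows, 8.30% held TTCNNNGAA, 4.81% held TTCCNNGAA and 0.457% held 2 or more matches to TTCNNNGAA. A match describes the letters in the window and is not a measured binding site.

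SOCS2, which recruits a ubiquitin ligase to the growth hormone receptor, had the next lowest fold change in K562 among the members. It had 21.3, 20.5 and 18.9 CPM in HSP90i libraries, against 219, 245 and 228 CPM in Control libraries (log2 fold change −3.51 ± 0.13, 9th lowest of 13456). Without Control replicate 1 the value was −3.54. Mouse Socs2 had 2.85, 3.44 and 3.47 CPM in MEF HSP90i libraries, against 16.3, 15.7 and 16.1 CPM in MEF Control libraries. The MEF groups were widely separated, and −2.33 ± 0.11 was the lowest log2 fold change of a member in that line.

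In HPC-7, Socs2 was near the bottom of the measured range. It had 3.78, 1.67 and 2.28 CPM in HSP90i libraries and 2.12, 1.71 and 2.0 CPM in Control libraries. The groups overlapped (0.44 ± 0.30), and the value was 0.01 without HSP90i replicate 1. The human table also lists an antisense gene, SOCS2-AS1. Reads of the pair could be shared, since the sources used here do not say whether counting used strand. SOCS2-AS1 had 5.59, 5.60 and 5.89 CPM in K562 HSP90i libraries and 14.8, 9.23 and 6.93 CPM in K562 Control libraries, lower in all 3 treated libraries but not called (−0.86 ± 0.28, adjusted p = 0.0833, edgeR's quasi-likelihood test). The difference was smaller without Control replicate 1 (−0.52), where it was called (edgeR adjusted p = 0.0497), and over all alternatives the adjusted p lay between 0.018 and 0.241.

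SOCS1, which binds and inhibits JAK kinases directly, was counted less deeply. It had 3.32, 3.6 and 1.78 CPM in K562 HSP90i libraries, against 22.5, 16.2 and 10.8 CPM in K562 Control libraries. The groups were separate although the controls spread widely (log2 fold change −2.50 ± 0.34, and −2.21 without Control replicate 1, the highest control). In MEF, Socs1 had 8.65, 6.87 and 5.61 CPM in HSP90i libraries and 14.4, 10.4 and 11.4 CPM in Control libraries (−0.77 ± 0.18). In HPC-7 it was barely detected, with 6, 7 and 0 counts in HSP90i libraries and 7, 7 and 7 counts in Control libraries, and was not tested.

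SOCS3, which inhibits JAKs bound to receptors of the IL-6 family, was low in K562, at 1.14, 1.6 and 1.11 CPM in HSP90i libraries and 5.90, 8.19 and 7.29 CPM in Control libraries. The groups did not overlap (−2.46 ± 0.25, and −2.58 without Control replicate 1). MEF Socs3 had 5.41, 5.57 and 7.83 CPM in HSP90i libraries, against 21.2, 19.1 and 21.7 CPM in Control libraries (−1.75 ± 0.14). HPC-7 Socs3 had 3.20, 1.96 and 2.10 CPM in HSP90i libraries and 2.47, 2.05 and 2.50 CPM in Control libraries. Those HPC-7 groups overlapped (0.07 ± 0.24), and the sign was negative without HSP90i replicate 1 (−0.22).

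Mouse Socs3 (ENSMUSG00000053113) lies on chromosome 11 (117966079 to 117970336), and its window was the other one of the 11 to hold the palindrome. It is shown for comparison with Cish: a single match, whose first base is at −154 from a start that RefSeq places inside the gene, in chr11:117969502-117969531 on the minus strand.
Socs3 upstream: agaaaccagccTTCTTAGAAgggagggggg
These 9 bases are not a TTCCNNGAA on either strand.

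PIM1, a serine/threonine kinase that is active as made, was counted deeply in K562. It had 251, 232 and 241 CPM in K562 HSP90i libraries, against 2249, 2397 and 2248 CPM in K562 Control libraries. Replicates lay close together and the groups were 9.52-fold apart (log2 fold change −3.25 ± 0.12, 13th lowest of 13456). The value was −3.27 without Control replicate 1. MEF Pim1 had 3.43, 3.72 and 3.20 CPM in HSP90i libraries and 12.2, 13.5 and 11 CPM in Control libraries (−1.83 ± 0.12).

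In HPC-7, Pim1 changed little. It had 46.6, 46.1 and 41.2 CPM in HSP90i libraries and 50.2, 48.0 and 46.8 CPM in Control libraries. Every treated value lay below every control value, but the difference was not called (−0.12 ± 0.08). Groups failed to overlap in that direction in 38.9% of all tested HPC-7 genes.

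Mouse Pim1 (ENSMUSG00000024014) lies on chromosome 17 (29490785 to 29496111). Its 250 bases before the first annotated start, chr17:29490535-29490784 on the plus strand, are shown for comparison with mouse Cish. Pim1 and Cish were both lower in MEF, as were human PIM1 and CISH in K562, while the 2 mouse Pim1 windows held no TTCNNNGAA.
Pim1 upstream: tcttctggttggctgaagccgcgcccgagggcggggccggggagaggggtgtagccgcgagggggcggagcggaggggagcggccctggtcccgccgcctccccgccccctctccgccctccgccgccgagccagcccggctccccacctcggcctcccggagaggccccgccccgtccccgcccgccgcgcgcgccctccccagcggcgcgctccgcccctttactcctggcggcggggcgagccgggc
Of these bases 82.4% were G or C, against 55.2% for Cish and a median of 52.4% over all windows. In the other Pim1 window the 250 bases before the start, chr17:29492835-29493084, were 48% G or C. The absence of a match says only that these letters are not in these windows.

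PIM2 and PIM3 are close relatives of PIM1 with overlapping substrates. PIM2 had 10.5, 11 and 10.6 CPM in K562 HSP90i libraries, against 97.7, 88.6 and 82.5 CPM in K562 Control libraries (log2 fold change −3.07 ± 0.14, and −3.00 without Control replicate 1). MEF Pim2 lay the other way, with 6.96, 6.78 and 7.21 CPM in HSP90i libraries and 4.84, 5.97 and 5.80 CPM in Control libraries. The MEF groups did not overlap, but the difference was small (0.36 ± 0.12), and it was not called with DESeq2 or without HSP90i replicate 1, HSP90i replicate 3 or Control replicate 1. HPC-7 Pim2 overlapped between groups, at 16.0, 13.1 and 13.1 CPM in HSP90i libraries and 14.3, 15.1 and 14.0 CPM in Control libraries (−0.03 ± 0.12).

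PIM3 stood apart from its relatives in K562. It had 106, 101 and 86.2 CPM in HSP90i libraries and 119, 119 and 102 CPM in Control libraries, which overlapped, and was not called (−0.22 ± 0.14). MEF Pim3 was higher with the inhibitor, at 38.3, 35.7 and 32.6 CPM in HSP90i libraries and 31.7, 26.9 and 29.2 CPM in Control libraries (0.28 ± 0.09). That call was lost without MEF HSP90i replicate 1. HPC-7 Pim3 overlapped, at 22.7, 19.4 and 15.5 CPM in HSP90i libraries and 22.5, 20.1 and 25.1 CPM in Control libraries (−0.23 ± 0.14), although it was called lower without HPC-7 HSP90i replicate 1 (−0.38).

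The make-up of the PIM family by counts shifted in K562 and MEF. PIM1 made up 69.1% ± 2.01 of PIM counts in K562 HSP90i libraries and 91.9% ± 0.623 in K562 Control libraries (SD, n = 3). PIM3's share was 27.9% ± 2.04 in K562 HSP90i libraries and 4.53% ± 0.332 in K562 Control libraries. In MEF, Pim1's share was 7.52% ± 0.505 in HSP90i libraries and 26.1% ± 2.76 in Control libraries. In HPC-7 it was 57.4% ± 2.42 in HSP90i libraries and 56.6% ± 1.86 in Control libraries, within the spread of replicates. These shares are of counts and depend on transcript lengths, so they compare groups and not the amounts of the 3 kinases.

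STAT5A and STAT5B, the transcription factors themselves, were called in neither direction in K562. STAT5A had 159.5, 135 and 159 CPM in K562 HSP90i libraries and 189, 159 and 168 CPM in K562 Control libraries. STAT5B had 391, 361 and 407 CPM in K562 HSP90i libraries and 261, 378 and 410.0 CPM in K562 Control libraries. Both overlapped between groups, with log2 fold changes of −0.19 ± 0.13 for STAT5A and 0.14 ± 0.17 for STAT5B. The low STAT5B control was Control replicate 1, without which STAT5B stood at −0.03.

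In HPC-7 both genes were higher with the inhibitor. Stat5a had 353, 286 and 312 CPM in HSP90i libraries, against 209.8, 223 and 219.5 CPM in Control libraries (log2 fold change 0.55 ± 0.08). Stat5b had 299.7, 252 and 272 CPM in HSP90i libraries, against 172, 179.7 and 186 CPM in Control libraries (0.62 ± 0.08). All treated values lay above all control values for both genes.

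In MEF the pair moved in opposite directions. Stat5a had 34.2, 31.9 and 31.0 CPM in HSP90i libraries and 22.8, 25.1 and 23.1 CPM in Control libraries (0.46 ± 0.07). Stat5b had 22.6, 27.0 and 25.8 CPM in HSP90i libraries and 33.9, 32.5 and 34.1 CPM in Control libraries (−0.42 ± 0.08). The log2 ratio of Stat5a to Stat5b counts was accordingly 0.37 ± 0.203 in MEF HSP90i libraries and −0.50 ± 0.112 in MEF Control libraries (SD, n = 3). It was 0.21 ± 0.0269 in HPC-7 HSP90i libraries and 0.28 ± 0.0375 in HPC-7 Control libraries.

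In K562 that ratio was −1.36 ± 0.0653 in HSP90i libraries and −1.0 ± 0.469 in Control libraries, with Control replicate 1 at −0.46 and the other controls at −1.25 and −1.29. The mouse genes are head to head on chromosome 11, Stat5b at 100780731 to 100859004 and Stat5a at 100859351 to 100885169, with 346 bases between them. They encode closely related proteins. Reads in their most alike stretches could be assigned to either gene, so the split between them carries that uncertainty.

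**Figure D2:**
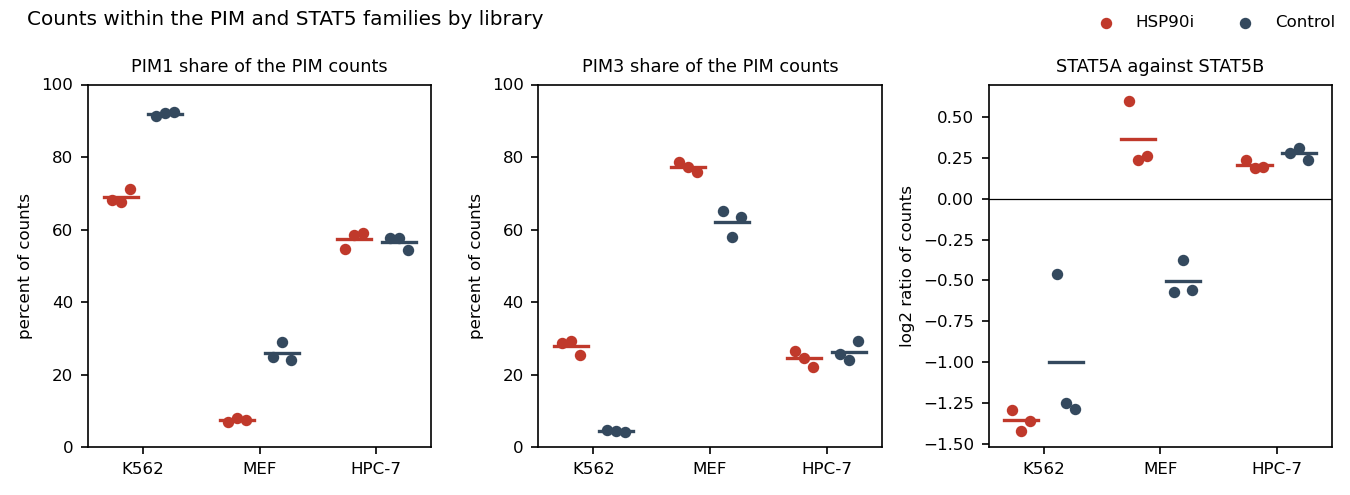
Share of PIM1 and of PIM3 in the counts of the 3 PIM genes (percent, left and middle panels) and log2 ratio of STAT5A to STAT5B counts (right panel) in each library; HSP90i dots are red and left of Control dots in dark blue, lines are means of 3. PIM1's share was 67.5% to 71.3% in K562 HSP90i libraries and 91.2% to 92.4% in K562 Control libraries.

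OSM encodes oncostatin M, a cytokine of the IL-6 family and itself a known STAT5 target in blood cells. It was essentially not detected. K562 had 0 counts in HSP90i libraries and 1 count in Control libraries, in replicate 3. HPC-7 likewise had 0 counts in HSP90i libraries and 1 in Control libraries, in replicate 2, and MEF had 0 in all 6 libraries. A count of 0 allows up to 3 counts in a library, which is 0.274 to 0.378 CPM in K562, 0.131 to 0.285 CPM in MEF and 0.178 to 0.296 CPM in HPC-7, for counting error only. OSM was not tested in any line, and no change was detectable at this depth.

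The size of the responses differed between lines more than their standard errors for several members. The difference of log2 fold changes is given with its combined SE, as a description without a test, because the lines were fitted separately. K562 minus MEF was −3.21 ± 0.26 for CISH, −1.42 ± 0.17 for PIM1 and −3.43 ± 0.19 for PIM2. It was −1.73 ± 0.38 for SOCS1, −1.18 ± 0.17 for SOCS2 and −0.72 ± 0.29 for SOCS3. K562 minus HPC-7 was −5.98 ± 0.27 for CISH, −3.94 ± 0.33 for SOCS2, −3.14 ± 0.14 for PIM1 and −3.03 ± 0.18 for PIM2. The 3 genes that were not called in K562 differed from MEF by −0.49 ± 0.16 for PIM3, −0.65 ± 0.15 for STAT5A and 0.57 ± 0.19 for STAT5B. These sizes were near that of SOCS3, which was called in K562. Between PIM3 in K562 and in HPC-7 the difference was 0.01 ± 0.20.

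**Figure D3:**
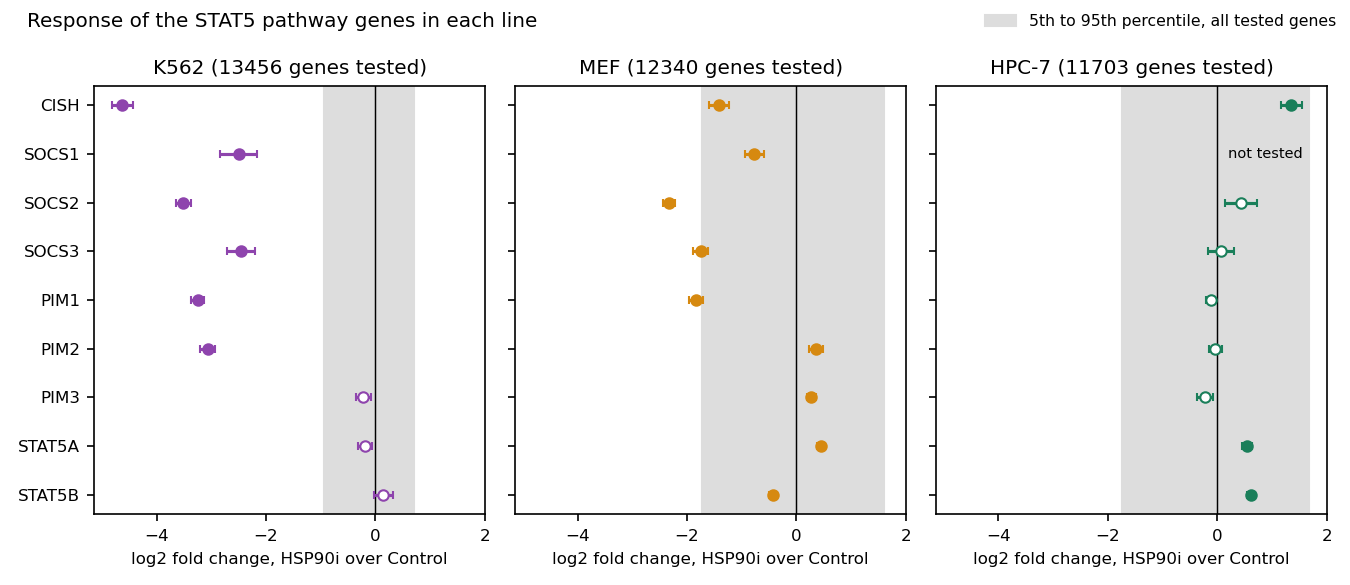
Log2 fold change of each tested member, HSP90i over Control, in K562, MEF and HPC-7; dots are estimates, bars are ±1 SE, filled dots were called and open dots were not, and the grey band spans the 5th to 95th percentile of all tested genes of the line. In K562 the inhibitors and PIM1 and PIM2 lay left of the band, PIM3, STAT5A and STAT5B lay inside it, and in HPC-7 all 8 tested members lay inside it.

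The Control libraries of the 2 mouse lines give a contrast that did not enter the choice of genes. Their counts were scaled and fitted together with those of the HSP90i libraries of both mouse lines, over 13720 genes. The treated libraries thus entered the filter, the scaling and the spread behind each p. Of the 13720 genes, 83.2% differed between HPC-7 Control and MEF Control, 43.6% higher and 39.7% lower in HPC-7. All 9 tested members differed, 4 higher and 5 lower in HPC-7 Control, against that background of most genes. Socs1, among those 5, was too low to be tested within HPC-7 and passed the filter here only through its MEF level. The transcription factors and PIM1 and PIM2 were higher in HPC-7 Control, and the 4 feedback inhibitors and Pim3 were lower there. P-values are Benjamini-Hochberg adjusted over all genes, from edgeR's quasi-likelihood test.

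Stat5a had 193, 204 and 201 CPM in HPC-7 Control libraries, against 24.2, 25.4 and 24.9 CPM in MEF Control libraries. It was 8.03-fold higher in HPC-7 (log2 difference 3.01 ± 0.08, edgeR adjusted p = 1.47e-13). Stat5b was 4.66-fold higher, at 164 ± 6.01 CPM in HPC-7 Control and 35.2 ± 2.04 CPM in MEF Control (edgeR adjusted p = 4.38e-12). Pim1 had 44.3 ± 1.64 CPM in HPC-7 Control and 12.8 ± 0.912 CPM in MEF Control (1.78 ± 0.08, edgeR adjusted p = 3.9e-11). Pim2 had 13.3 ± 0.462 CPM in HPC-7 Control and 5.81 ± 0.586 CPM in MEF Control (1.21 ± 0.12, edgeR adjusted p = 1.97e-07).

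The feedback inhibitors lay the other way. Socs1 had 0.378, 0.547 and 0.535 CPM in HPC-7 Control libraries, against 15.2, 10.5 and 12.3 CPM in MEF Control libraries (−4.74 ± 0.33). With 7 counts in each HPC-7 Control library, it passed the filter only through its MEF level. Its difference is therefore given as a description without a p-value. Socs2 had 1.94, 1.56 and 1.83 CPM in HPC-7 Control libraries and 17.3, 15.9 and 17.3 CPM in MEF Control libraries (−3.23 ± 0.19, edgeR adjusted p = 8.23e-10). Socs3 averaged 2.14 ± 0.234 CPM in HPC-7 Control and 21.7 ± 2.12 CPM in MEF Control (−3.33 ± 0.18, edgeR adjusted p = 2.04e-10). MEF Control exceeded HPC-7 Control 26.7-fold for Socs1, 9.36-fold for Socs2 and 10.1-fold for Socs3, and no HPC-7 library reached the lowest MEF library. The Socs1 fold rests on an HPC-7 level near the floor.

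Cish and Pim3 differed less. Cish averaged 2.90 ± 0.719 CPM in HPC-7 Control and 5.25 ± 0.757 CPM in MEF Control (−0.81 ± 0.19, edgeR adjusted p = 0.00108). Pim3 averaged 20.7 ± 2.32 CPM in HPC-7 Control and 30.8 ± 3.3 CPM in MEF Control (−0.58 ± 0.13, edgeR adjusted p = 0.000737). Scaling by library size alone moved the median difference of all genes to 0.30 on the log2 scale, against 0.08 with TMM. None of the 9 members lost its call or its direction under that or any other alternative run.

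**Figure D4:**
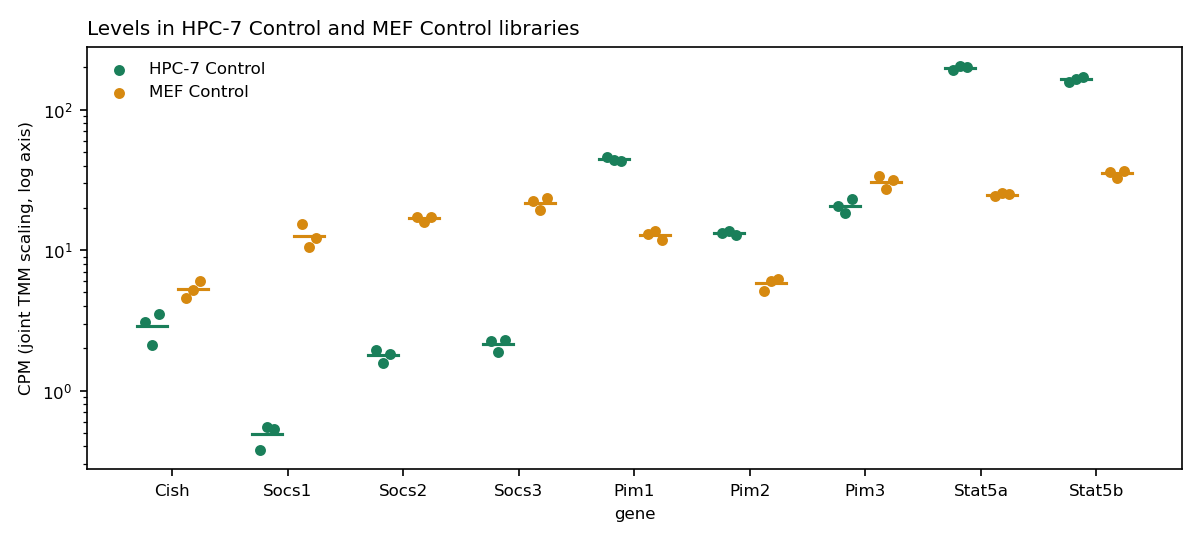
Level of the 9 tested members in HPC-7 Control libraries (green, left) and MEF Control libraries (orange, right), in CPM on one joint TMM scaling with a log axis; dots are libraries and lines are means of 3. The STAT5 genes, Pim1 and Pim2 sit higher in HPC-7, and Cish, Socs1, Socs2, Socs3 and Pim3 sit higher in MEF.

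Across lines the level of each gene in Control libraries can only be set side by side, since the human and mouse tables were scaled separately and gene models differ. In Control libraries CISH averaged 75.9 ± 6.49 CPM in K562, 5.0 ± 0.678 CPM in MEF and 3.17 ± 0.781 CPM in HPC-7. PIM1 averaged 2298 ± 85.5 CPM in K562, 48.3 ± 1.72 CPM in HPC-7 and 12.3 ± 1.26 CPM in MEF. SOCS3 had another order, with 20.7 ± 1.36 CPM in MEF, 7.13 ± 1.15 CPM in K562 and 2.34 ± 0.251 CPM in HPC-7. SOCS1 averaged 16.5 ± 5.89 CPM in K562 and 12.1 ± 2.04 CPM in MEF, whose ranges overlapped.

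Genes whose response over the 3 lines was most like that of CISH, SOCS2 and PIM1 were sought among 8322 genes matched by symbol, by Euclidean distance between the 3 log2 fold changes. PHLDA1, which encodes a pleckstrin-homology protein, was nearest to all 3 members, at distances of 1.52 from CISH, 0.715 from SOCS2 and 1.06 from PIM1. Its log2 fold change was −3.24 in K562, −1.90 in MEF but 0.94 in HPC-7. FOS, an immediate early transcription factor gene, came next for all 3, at 2.65 from CISH, 0.995 from SOCS2 and 1.20 from PIM1. IER3 ranked 3 for CISH (2.69) and SOCS2 (1.70), and JUNB ranked 3 for PIM1 (1.69). The others named by the same rule were MDGA1 (2.81) and MEX3B (2.93) for CISH, JUNB (1.81) and LRRC8C (2.02) for SOCS2, and MDGA1 (1.71) and LRRC8C (1.73) for PIM1.

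Other genes of the pathway were read from 6 lists, which held 53 tested genes in each line. Of these, 3 were higher and 11 lower in K562, 15 higher and 28 lower in MEF, and 26 higher and 11 lower in HPC-7. The K562 counts rested on single libraries, with 25 called genes without Control replicate 1 and 7 without HSP90i replicate 2, against 14 with all libraries. Of the K562 genes named from the lists, those with a log2 fold change given were still called without Control replicate 1, at 0.64 for STAT2, 0.53 for STAT6, −1.37 for LIF, −2.19 for BCL2L1, −1.78 for CCND1, −1.54 for MYC and 0.84 for SHC1. Counts of a list are set beside the shares of all genes called in each line given above, and no list was tested as a set. The lists were chosen with earlier results of these data known, and the named genes by smallest p. Their counts and p-values are therefore descriptive.

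The JAK kinases, which carry the signal from receptor to STAT, and the other STATs had 2 higher and 0 lower of 7 in K562, 1 higher and 4 lower of 8 in MEF, and 6 higher and 1 lower of 9 in HPC-7. STAT2, a mediator of type I interferon signalling, was higher in K562 (74.5 ± 6.72 CPM in HSP90i, 44.8 ± 6.0 CPM in Control, log2 fold change 0.74 ± 0.15, edgeR adjusted p = 0.0173). STAT6, which serves IL-4, was higher there too (0.53 ± 0.12, edgeR adjusted p = 0.0308). Both calls were lost without K562 HSP90i replicate 1, 2 or 3 or Control replicate 2. In MEF, Jak1 (−0.44 ± 0.05) and the blood-cell kinase gene Jak3 (−0.76 ± 0.09) were lower and Stat2 was higher (0.89 ± 0.06). In HPC-7, Stat3 (0.96 ± 0.07), Stat6 (0.84 ± 0.10) and Jak3 (0.64 ± 0.08) were higher. The edgeR adjusted p of the 6 mouse values lay between 1.33e-06 for MEF Stat2 and 9.43e-05 for MEF Jak3.

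Receptors that signal through JAK and STAT5 had 0 higher and 0 lower of 5 in K562, where an unadjusted p below 0.05 gave 2 higher and DESeq2 gave 1 higher. They had 3 higher and 0 lower of 3 in MEF, namely Ghr, the growth hormone receptor (0.69 ± 0.12), Il3ra (0.82 ± 0.13) and Csf2ra (0.95 ± 0.21), with edgeR adjusted p from 0.000388 to 0.00354. In HPC-7, 6 were higher and 1 lower of 8. Il7r, the IL-7 receptor, had 47.3 ± 6.82 CPM in HPC-7 HSP90i libraries and 2.19 ± 0.177 CPM in HPC-7 Control libraries (4.41 ± 0.16, edgeR adjusted p = 7e-08). Csf2rb, the shared beta chain for IL-3, IL-5 and GM-CSF, had 137 ± 12 CPM in HPC-7 HSP90i libraries and 33.2 ± 0.505 CPM in HPC-7 Control libraries (2.04 ± 0.09, edgeR adjusted p = 1.27e-07). Its close copy Csf2rb2 could share its reads. Epor, the erythropoietin receptor, was higher as well (1.10 ± 0.10, edgeR adjusted p = 7.79e-06). In the same HPC-7 libraries the erythroid marker Gata1 averaged 106 CPM in HSP90i and 22.9 CPM in Control, and Tal1 averaged 744 CPM in HSP90i and 361 CPM in Control. The 6 blood precursor markers summed to 3480 to 3870 CPM in HPC-7 HSP90i and 2170 to 2190 CPM in HPC-7 Control libraries, but not all lay the same way. Kit averaged 2522 CPM in HSP90i and 987 CPM in Control, Ptprc 528 CPM in HSP90i and 255 CPM in Control, and Cd34 56.7 CPM in HSP90i and 342 CPM in Control. The part of these markers in the results was not tested.

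The other SOCS genes and pathway inhibitors had 0 higher and 0 lower of 13 in K562, where an unadjusted p below 0.05 gave 1 higher and DESeq2 gave 0. They had 2 higher and 7 lower of 13 in MEF and 5 higher and 1 lower of 13 in HPC-7. Named in MEF were Socs5 (−0.82 ± 0.05, 59.6 ± 0.940 CPM in HSP90i and 105 ± 3.11 CPM in Control) and the phosphatase genes Ptpn1 (−0.57 ± 0.06) and Ptpn6 (1.63 ± 0.16), with edgeR adjusted p from 8.17e-07 to 2.58e-05. Named in HPC-7 were Pias1 (0.46 ± 0.07), Socs7 (0.32 ± 0.07) and the adaptor gene Sh2b3 (−0.31 ± 0.08), with edgeR adjusted p from 0.000154 to 0.00463.

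For oncostatin M and IL-6 family signalling, 0 of 6 were higher and 2 lower in K562, where DESeq2 also gave 0 higher and an unadjusted p below 0.05 gave 1. The lower ones were the cytokine genes LIF and IL6. LIF had 1.66 ± 0.303 CPM in K562 HSP90i libraries and 3.99 ± 0.737 CPM in K562 Control libraries (−1.27 ± 0.26, edgeR adjusted p = 0.0191, a call that was lost without HSP90i replicate 1, 2 or 3 or Control replicate 2). IL6 had 0, 1 and 0 counts in K562 HSP90i libraries and 19, 14 and 15 counts in K562 Control libraries. It passed the filter only through its Control level, so no p-value is given. In MEF, 2 of 7 were higher and 5 lower. Osmr, the oncostatin M receptor, had 67.5 ± 4.52 CPM in MEF HSP90i libraries and 238 ± 23.4 CPM in MEF Control libraries (−1.82 ± 0.08, edgeR adjusted p = 1.69e-07). Il6st, its gp130 partner, was lower too (−0.55 ± 0.05, edgeR adjusted p = 1.31e-05). In HPC-7, 1 of 3 was higher, Il6ra (1.26 ± 0.09, edgeR adjusted p = 1.32e-06), and 0 were lower, where an unadjusted p below 0.05 gave 1 lower and DESeq2 gave 0.

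Other textbook STAT5 targets had 0 higher and 9 lower of 12 in K562, also 0 higher at an unadjusted p below 0.05 and with DESeq2. Without single libraries the count of lower genes ranged from 5 to 11. BCL2L1, which encodes the survival protein BCL-XL, had 41.5 ± 2.84 CPM in K562 HSP90i libraries and 198 ± 14.9 CPM in K562 Control libraries (−2.26 ± 0.13, edgeR adjusted p = 4.05e-05). The cyclin D1 gene CCND1 had 11.5 ± 0.611 CPM in K562 HSP90i libraries and 39.8 ± 3.08 CPM in K562 Control libraries (−1.80 ± 0.14). MYC stood at −1.43 ± 0.15, and the edgeR adjusted p was 0.000229 for CCND1 and 0.00103 for MYC. The median over the 12 genes was −1.28, beside −0.02 over all tested genes. Since the list was chosen with earlier results known, nothing is read from its count or median.

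The same list had 4 higher and 8 lower of 13 in MEF and 3 higher and 8 lower of 11 in HPC-7, with medians of −0.47 and −1.30. Named in MEF were Myc (−2.76 ± 0.07), the phosphatase gene Dusp5 (−2.14 ± 0.07) and Ccnd1 (−2.06 ± 0.06), with edgeR adjusted p from 1.34e-08 to 4.56e-08. In HPC-7, Tfrc, the transferrin receptor gene, had 27.3, 73.4 and 33.6 CPM in HSP90i libraries and 389, 393 and 394 CPM in Control libraries (−3.14 ± 0.30, edgeR adjusted p = 7.73e-06). Id1, an inhibitor of helix-loop-helix factors, had 1.20 ± 0.288 CPM in HPC-7 HSP90i libraries and 5.95 ± 0.5 CPM in HPC-7 Control libraries (−2.28 ± 0.21, edgeR adjusted p = 7.33e-06). The cyclin D2 gene Ccnd2 was lower in HPC-7 as well (−1.30 ± 0.09, edgeR adjusted p = 1.64e-06).

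BCR-ABL1 adaptors and kinases had 1 higher and 0 lower of 10 in K562, with 0 lower also at an unadjusted p below 0.05 and with DESeq2. The higher gene was the adaptor SHC1, at 120.3 ± 5.82 CPM in K562 HSP90i libraries and 64.1 ± 6.03 CPM in K562 Control libraries (0.91 ± 0.13, edgeR adjusted p = 0.00428). ABL1 (0.05 ± 0.12) and BCR (0.18 ± 0.24), whose joined parts make the fusion, were not called in K562, and gene counts do not separate the fusion transcript from the normal genes. MEF had 3 higher and 4 lower of 9, with Abl1 at 0.58 ± 0.06, Bcr at −0.39 ± 0.05 and Crkl at −0.35 ± 0.05 (edgeR adjusted p from 1.96e-05 to 0.00029). HPC-7 had 5 higher and 0 lower of 9, with Bcr at 0.88 ± 0.09, Abl1 at 0.29 ± 0.08 and Pik3r1 at 0.26 ± 0.07 (edgeR adjusted p from 1.1e-05 to 0.00897). None of these 9 was lower in HPC-7 at an unadjusted p below 0.05 or with DESeq2.

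**Figure D5:**
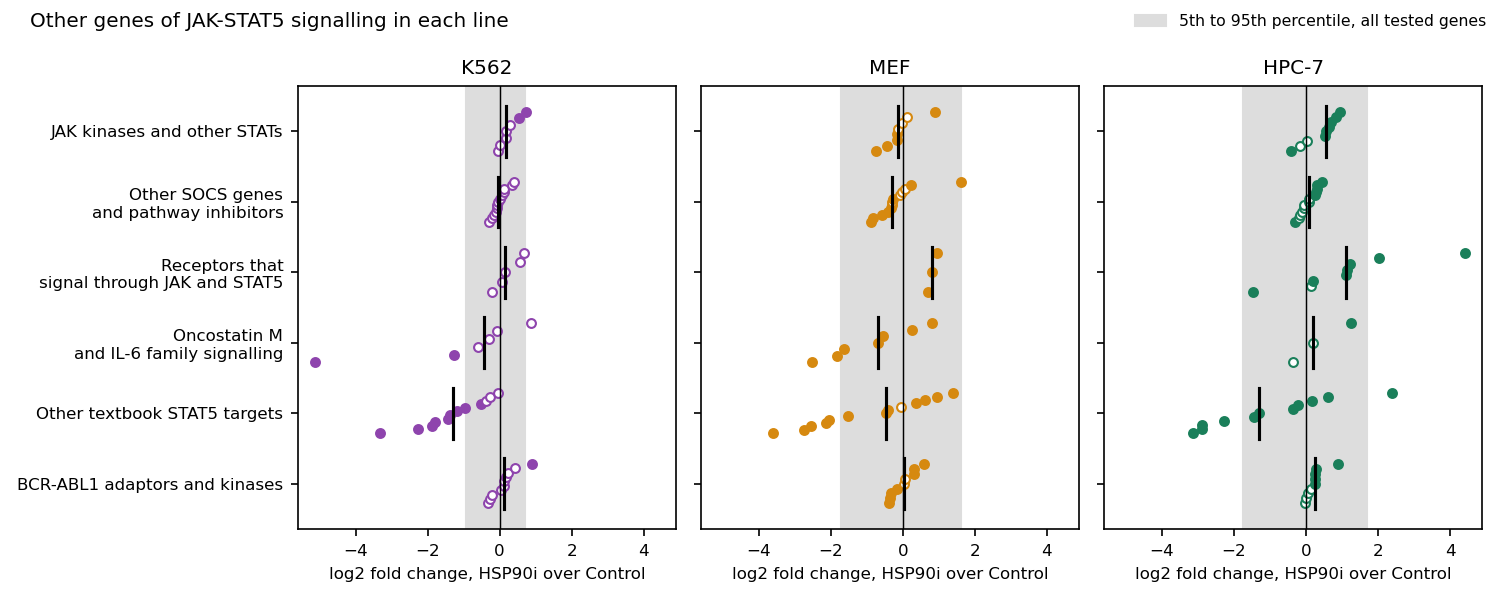
Log2 fold change, HSP90i over Control, of every tested gene of the 6 lists in K562, MEF and HPC-7; each dot is a gene, filled where called, black bars are list medians, and the grey band spans the 5th to 95th percentile of all tested genes. Of the textbook targets, 9 of 12 were lower in K562, 8 of 13 in MEF and 8 of 11 in HPC-7 (medians −1.28, −0.47 and −1.30), while 0, 4 and 3 were higher; of the receptors, 3 of 3 were higher in MEF (median 0.82) and 6 of 8 in HPC-7 (median 1.12), where 1 was lower.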

How the data were processed

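The deposited values were raw counts per gene, per the file headers one table for each line, and all were whole numbers. Columns named for DMSO were matched to samples titled Control by line and replicate number. Trim Galore, TopHat2 2.0.13, featureCounts and DESeq2 are among the tools named, without their roles, per the submitters' processing notes. Neither strand use nor the build of the K562 counts is stated in these sources, and no human positions are reported. The K562 HSP90 ChIP-seq peaks were not used here, because no human annotation was used to place them, and the planned protein comparison was not run.

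Within each line, genes were filtered with edgeR's filterByExpr, scaled with TMM and tested with the quasi-likelihood test (edgeR 4.0.16, R 4.3.3), HSP90i against Control. Calls are at a Benjamini-Hochberg adjusted p below 0.05. This left 13456 K562 genes, 12340 MEF genes and 11703 HPC-7 genes, with biological coefficients of variation of 0.172, 0.0835 and 0.0900 in that order. For HPC-7 Control against MEF Control, all mouse libraries, HSP90i ones included, were fitted together over 13720 genes. With the wider spread of its replicates, a gene not called in K562 may have a change of a size that was called in the mouse lines. The procedure was tested on simulated counts.

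The members and the 6 lists were chosen with earlier results of these data known. Named genes were all members, up to 3 called genes per list and line with the smallest p, the 5 genes nearest to CISH, SOCS2 and PIM1, and 4 chaperone genes as a check of the drug, of which HSPA1A, HSPH1 and HSP90AA1 are given here. In K562, MEF and HPC-7, HSPA1A stood at 6.67 ± 0.23, 0.51 ± 0.14 and 3.40 ± 0.53, HSPH1 at 4.34 ± 0.14, 1.78 ± 0.05 and 0.94 ± 0.08, and HSP90AA1 at 3.20 ± 0.13, 1.21 ± 0.22 and −0.62 ± 0.15 (log2 fold change ± SE, lines in the same order). Hspa1a was low in both mouse lines. It averaged 6.71 CPM in MEF HSP90i and 4.61 CPM in MEF Control libraries. In HPC-7 it averaged 1.67 CPM in HSP90i and 0.135 CPM in Control libraries, and passed the filter there only through its HSP90i level.

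Markers of other cell types were summed per library. Fibroblast markers summed to 10.8 to 11.9 CPM in K562 HSP90i and 6.69 to 7.18 CPM in K562 Control libraries, with THY1 and COL1A2 at 0. In HPC-7 they summed to 268 to 310 CPM in HSP90i and 179 to 203 CPM in Control libraries, nearly all from Pdgfrb. Blood precursor markers summed to 183 to 201 CPM in MEF HSP90i and 189 to 234 CPM in MEF Control libraries, mostly from Cd34 and Gata2. Their part in the results was not tested. Results for some genes named by these rules are not reported here.

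Promoter windows and mouse positions came from RefSeq, GRCm38.p6. All 10 mouse member identifiers had the same symbol in the reference names. Each library in turn was left out. The other alternatives were DESeq2 1.42.0, upper quartile or RLE factors or library size alone, a minimum of 1 CPM in 3 libraries or no filter, a replicate block, and a joint fit of the mouse lines. For the lists they were added after the data were seen. Plots were made in Python 3.11.15 with matplotlib 3.10.9.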

Additional observations from a re-analysis of the deposited data

Results flagged for a closer look

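Among the members and the list genes named in the report, some had all 3 treated libraries on one side of the controls in one line and all 3 on the other side in another line. These differences of log2 fold changes were not tested. Of the members, CISH differed by −5.976 between K562 and HPC-7 (K562 minus HPC-7) and by 2.77 between HPC-7 and MEF (HPC-7 minus MEF). PIM2 differed by −3.427 (K562 minus MEF), and STAT5B by 1.038 (HPC-7 minus MEF).

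Among the other pathway genes, again as HPC-7 minus MEF, JAK3 differed by 1.397, BCR by 1.267, STAT3 by 1.124, PTPN1 by 0.8319, SOCS7 by 0.6342 and PIK3R1 by 0.4131. PTPN6 differed by −1.744 and CCND2 by −1.664 in the same comparison. JAK1 differed by 0.4795 (HPC-7 minus MEF) and 0.7305 (K562 minus MEF), and CCND2 by −1.333 (K562 minus MEF). JAK1 was not called in K562 or HPC-7, nor PTPN6 in HPC-7, although their groups did not overlap there.

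Of the list genes that the report does not name, 8 met the same description, in 10 comparisons of lines. Over all tested genes, groups did not overlap for 17.4% higher and 17.8% lower in K562. These shares were 37% and 39.3% in MEF, and 38.5% and 38.9% in HPC-7. How many of all genes lay in opposite directions between lines was not counted, so nothing is read from the number of list genes. The largest differences, picked after their values were seen, were −3.292 for IGF1 (K562 minus MEF) and 2.804 for GADD45G (HPC-7 minus MEF), and the others were BCL6, CCND3, JAK2, LYN, MCL1 and SOS1. BCL6 and LYN were not called in K562, although their groups did not overlap there.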

How the results depend on the processing

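In K562 the 6 lower members were called under every alternative, while the number of all genes called ranged from 348 (without HSP90i replicate 2) to 3917 (without Control replicate 1), against 1491. The 6 lists together gave 7 to 25 called genes and the textbook targets 5 to 11 when single K562 libraries were left out. With library size alone as the K562 scaling, 435 genes were higher and 1195 lower against 688 and 803, with a median of −0.13. Upper quartile factors gave 535 and 981 in K562 and 5037 higher and 4072 lower in MEF, against 4337 and 4720, and the joint fit of the mouse lines gave 5166 and 3983 in MEF. Between the mouse controls, library size alone gave 6951 higher and 4706 lower, RLE factors 5254 and 6053 and DESeq2 5105 and 5964, against 5976 and 5442.

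Members that moved were MEF PIM2 with DESeq2 (0.38) and MEF PIM3 without HSP90i replicate 1 (0.22), neither of which was called there. HPC-7 PIM3 was called without HSP90i replicate 1 (−0.38). Uncalled values changed sign for K562 STAT5B (−0.026 to 0.28 without single libraries), HPC-7 PIM2 (0.020 with upper quartile factors, −0.15 to 0.017 without single libraries) and HPC-7 SOCS3 (−0.22 to 0.18 without single libraries). Of the list genes, K562 STAT6 was not called with library size alone (0.43, adjusted p = 0.0666, edgeR), nor HPC-7 PIK3R1 without Control replicate 3 (0.20, adjusted p = 0.0509, edgeR). The cause of these changes was not tested.

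Same-numbered libraries deviated together with correlations of 0.281, 0.0417 and 0.451 in K562, 0.268, −0.223 and −0.245 in MEF, 0.0064, 0.0235 and −0.0898 in HPC-7 and 0.098, 0.0418 and 0.102 between the mouse controls, so the numbers were not taken as pairs. With the replicate block, 1810, 8796, 8129 and 11381 genes were called in those 4 comparisons, against 1491, 9057, 8557 and 11418, and 6, 9, 3 and 9 members as before.

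Depth limits SOCS1 in HPC-7 (0 to 7 counts per library), OSM in all lines and the low SOCS2 and SOCS3 of HPC-7.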
